A study of Mus musculus with 5480 samples.

Results

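The proliferating myofibroblasts at postnatal day 7 were 77 single cells from the lungs of 2 mice kept in normal air, 32 cells from the female and 45 from the male. They were all cells of these mice whose subtype label read proliferating myofibroblast, out of 5480 cells in the whole series and 1176 in these 2 mice. Labels named 118 cells of the series so. The cells of comparison were the 339 cells labelled plainly as myofibroblasts in the same mice (155 and 184), called resting here after their label and not after a measured state. How the subtype labels had been given is not stated in the sources used here. They may rest on the same read counts, so every p-value below describes how well a difference repeated over the mice and not whether the class exists.

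Lung mesenchyme of the mouse had been sampled from the distal lung at embryonic day 18.5 and at postnatal days 1, 7 and 21 in normal air, and at day 7 after hyperoxia, with 1 female and 1 male in each of the 5 groups. Cells had been sorted by flow cytometry into plates, and each cell had been sequenced as a Tn5 transposase library with no RNA extraction step. Strain, genotype and oxygen level are not given in the labels. No molecular identifiers are named, so a count is a count of reads. All comparisons were made over mice, on reads summed within a mouse and class. The sums held 40856395 and 56848618 reads for the proliferating cells of the female and the male, and 166080639 and 213051124 for the resting cells. The median proliferating cell held 1310934 and 1061963 reads, and the median resting cell 1069503 and 1021952.5. All 77 cells came from the mesenchymal sort. Within a mouse, both classes came from 1 sequencing run, by the labels, apart from 1 resting cell of the male that came from a CD31 sort and another run. The myofibroblasts of the mice in hyperoxia came from other runs than those in air, so that between air and hyperoxia the run and the treatment cannot be told apart.

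Alveolar myofibroblasts are contractile, elastin-producing fibroblasts that carry the receptor for platelet-derived growth factor A and line the ridges which subdivide the airspaces of the newborn lung. They multiply in the first postnatal days, while alveoli form. A cell that divides first copies its DNA in S phase, under the control of E2F factors, and then turns on the genes of G2 phase and mitosis, many of them through the DREAM and MuvB complexes with Mybl2 and Foxm1.

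The cells bore the markers of their label. Mki67, a protein coating mitotic chromosomes, stood at 563 and 942 CPM (reads scaled to a common library total) in the proliferating cells of the female and the male, against 31.2 and 84.3 in the resting cells. Top2a, the topoisomerase that untangles sister DNA, stood at 906 and 1283 CPM against 16.7 and 59.4. At an equal depth of 100000 reads per cell, Mki67 had a read in 31 of 31 and 43 of 44 proliferating cells, and in 17.8% and 24.2% of resting cells. The myofibroblast markers were high in both classes: Tgfbi, an extracellular matrix protein induced by TGF-beta, stood at 4017 and 2756 CPM in proliferating and at 4900 and 3263 in resting cells. Acta2, smooth muscle actin, stood at 5485 and 5738 CPM against 8441 and 8077. The early alveolar fibroblasts of the same mice had 4.38 and 10.3 CPM of Tgfbi, so this gene set the myofibroblasts of either label apart from them. Neither marker was particular to myofibroblasts. Early airway smooth muscle of these mice had 9760 and 8164 CPM of Tgfbi, and 9646 and 11821.5 CPM of Acta2.

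**Figure D1:**
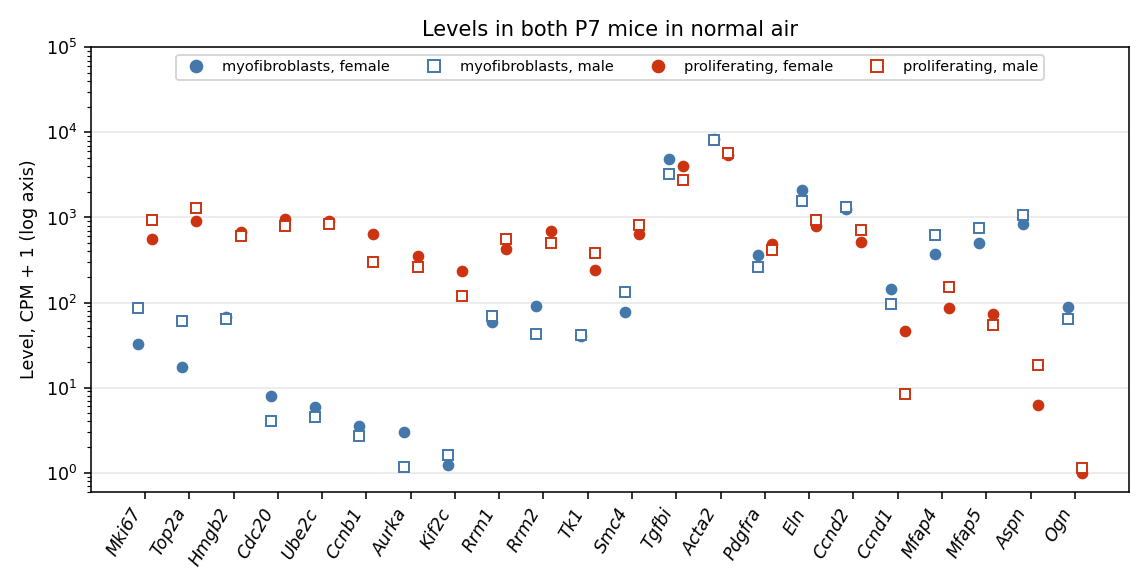
Level of 22 genes in the summed reads of each class and mouse at day 7 in normal air, as CPM + 1 on a log axis, with filled circles for the female and open squares for the male. The division genes on the left lie higher in both proliferating libraries (red) than in both resting libraries (blue), Tgfbi and Acta2 differ little, and Aspn, Ogn and Mfap5 on the right lie lower.

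Across all genes, the difference between the classes was tested with edgeR's quasi-likelihood test on 14 libraries, which were the 7 classes of these mice with the mouse as a block. This test called 3 of 14886 genes at an adjusted p under 0.05 (Benjamini-Hochberg), all of them lower in the proliferating cells (0.0202% of the genes tested), and none higher (0%). At an unadjusted p under 0.05 it held 739 genes. The same test on the 4 libraries of the contrast alone, with 1 residual degree of freedom, called 110 of 13014 genes higher (0.845%) and 4 lower (0.0307%). DESeq2 on the 14 libraries called 105 higher and 224 lower. Mki67, for example, had a log2 fold change of 3.84 (SE 0.26) and an adjusted p of 0.00586 in the 4-library test, and an adjusted p of 1 in the 14-library test. Each SE of a fold change was taken back from the F statistic of its edgeR test. It is therefore not a separate measure of spread over mice. The words "rose" and "fell" below refer to the 4-library test unless the 14-library test is named.

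Because calls depended so much on the fit, genes were also counted by a plain rule, chosen after the values were seen: at least 2-fold higher, or lower, in each mouse on the scale of log2(CPM + 1). By this rule 664 of 14886 genes were higher (4.46%) and 791 lower (5.31%). With 5 CPM added in place of 1 the numbers were 467 and 306. The median log2 fold change of all genes was -0.11, and the gene lists below are read against these shares.

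Most genes of G2 phase and mitosis rose. Of 68 genes on this list, 66 were at least 2-fold higher in both mice and 0 lower, 49 were called, and the median log2 fold change was 5.40. Summed over the list, their level was 25373 and 24417 CPM in proliferating cells against 1199 and 1158 in resting cells. Cdc20, which activates the anaphase-promoting complex, stood at 968 and 784 CPM against 6.87 and 3 (log2 fold change 7.60, SE 0.40, adjusted p = 0.00389). Ube2c, the ubiquitin-conjugating enzyme of the same complex, stood at 898 and 829 CPM against 4.93 and 3.52 (7.71, SE 0.31, adjusted p = 0.00389). In both genes each proliferating library lay above each resting one.

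The kinases and cyclins that drive entry into mitosis showed the same separation. Ccnb1, the mitotic cyclin, stood at 642 and 297 CPM against 2.57 and 1.71 (log2 fold change 7.72, SE 0.31, adjusted p = 0.00389). Its kinase Cdk1 was already present in the resting cells at 81.0 and 94.4 CPM and reached 985 and 837. Cdc25c, the phosphatase that switches this kinase on, had 0 and 0.174 CPM in resting cells and 143 and 121 in proliferating cells. Aurka, the kinase of the spindle poles, stood at 356 and 261 CPM against 2.03 and 0.169. Kif2c, a kinesin that removes tubulin from microtubule ends, stood at 236 and 119 CPM against 0.223 and 0.591. For these last genes nearly all reads came from the proliferating cells, so the size of a fitted fold depends on the few reads of the other class.

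Among 68 mitosis genes, 2 were not 2-fold higher. Pttg1, the securin that holds back separase, stood at 110 and 182 CPM in proliferating and at 107 and 126 in resting cells. Nek2, a kinase of centrosome separation, was near 0 everywhere, with at most 0.69 CPM. Ccnb1-ps, a pseudogene, also rose, from 0.163 and 0.338 to 163 and 75.3 CPM. It resembles Ccnb1, and the counting of shared reads is not stated, so its own level is uncertain. Sapcd2, a protein that orients the spindle, had 0 reads in both resting libraries and 92.9 and 21.4 CPM in the proliferating ones.

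Many mitosis genes share a short promoter layout, which is shown here because most of the list was higher. The layout is the cell cycle homology region (CHR, TTTGAA or TTTAAA), the element bound by MuvB complexes, together with CCAAT boxes, the element bound by NF-Y. The 100 bases before the start of 4 mitosis genes, picked because they show it, and of Mki67, the marker of the class, follow, from RefSeq on GRCm38.p6, read 5′ to 3′ on the gene's strand, with matches to CHR or CCAAT on either strand in capitals.
Ccnb1 (chr13:100786487-100786586, minus strand): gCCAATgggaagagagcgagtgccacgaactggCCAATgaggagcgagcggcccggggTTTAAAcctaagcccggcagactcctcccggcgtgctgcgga
Cdc20 (chr4:118437344-118437443, minus strand): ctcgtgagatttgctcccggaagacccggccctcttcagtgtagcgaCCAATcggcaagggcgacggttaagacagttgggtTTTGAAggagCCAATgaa
Plk1 (chr7:122159335-122159434, plus strand): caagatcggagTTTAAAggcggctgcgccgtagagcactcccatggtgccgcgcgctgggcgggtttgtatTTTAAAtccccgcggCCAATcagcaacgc
Ube2c (chr2:164769829-164769928, plus strand): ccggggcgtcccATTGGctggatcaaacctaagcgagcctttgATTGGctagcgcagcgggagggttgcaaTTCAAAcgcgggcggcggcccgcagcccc
Mki67 (chr7:135716380-135716479, minus strand): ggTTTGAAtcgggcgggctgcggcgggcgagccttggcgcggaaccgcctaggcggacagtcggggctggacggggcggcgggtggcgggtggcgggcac

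The first 4 windows hold a CHR and at least 1 CCAAT box, while that of Mki67 holds a CHR beginning 98 bases before the start and no CCAAT box. In Ube2c every match lies on the other strand, so that CHR reads TTCAAA and CCAAT reads ATTGG. The CHR begins 42 bases before the start of Ccnb1, 18 before that of Cdc20, 29 before that of Ube2c, and 29 and 89 before that of Plk1. A promoter was found for 55 of the 68 mitosis genes (80.9%). In the 250 bases before the start, 26 of these 55 held a CHR (47.3%), against 28.1% of the 27025 genes in the RefSeq table. Within 60 bases of the start the shares were 32.7% and 6.74%. A CCAAT box stood in 70.9% against 37.5%, at least 2 of them in 45.5% against 11.5%, and both elements in 38.2% against 10.1%. Among the 11113 tested genes with a promoter, a CHR stood in 20.8%, and within 60 bases in 4.37%. There a CCAAT box stood in 40.0%, at least 2 in 14.5%, and both elements in 7.89%. A CHR and a CCAAT box can share a single base, each was counted by itself, and a gene with both CHR forms was counted once. A match is a description of letters and not a binding site. For the replication and chromatin lists fewer than 80% of genes matched the table (78.3% and 76.7%), so no share is given for them.

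Genes of DNA replication were higher, but by less. Of 46 genes, 24 were at least 2-fold higher in both mice and 0 lower, 4 were called, and the median log2 fold change was 1.37. Rfc5 and Rfc4, subunits of the loader that places the sliding clamp on DNA, rose from 29.5 and 43.9 to 203 and 221 CPM and from 45.1 and 34.0 to 214 and 229 CPM (log2 fold changes 2.57, SE 0.29, adjusted p = 0.0258, and 2.52, SE 0.31, adjusted p = 0.0379). Prim1, the primase subunit that starts each new strand, rose from 58.5 and 70.8 to 221 and 259 CPM (1.92, SE 0.26, adjusted p = 0.0482). Uhrf1, which carries DNA methylation over to the new strand, rose from 19.4 and 19.7 to 131 and 122 CPM (2.71, SE 0.36, adjusted p = 0.0482). Of the subunits of the replicative helicase, Mcm3 was 2-fold higher in both mice, at 139 and 198 CPM against 44.2 and 81.4, while Mcm2, Mcm4, Mcm5, Mcm6 and Mcm7 were not. Mcm6 stood at 131 and 166 CPM against 86.4 and 88.8.

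Genes of nucleotide supply were less uniform. Of 30 genes 9 were 2-fold higher, 1 was lower and 3 were called, with a median log2 fold change of 0.76. The called genes make deoxynucleotides: Rrm1 and Rrm2 are the 2 subunits of ribonucleotide reductase, and Tk1 is thymidine kinase. Rrm1 rose from 58.6 and 67.9 to 424 and 556 CPM (log2 fold change 2.96, SE 0.24, adjusted p = 0.00973), Rrm2 from 90.6 and 41.5 to 692 and 500 CPM (3.28, SE 0.30, adjusted p = 0.0121) and Tk1 from 39.4 and 40.3 to 243 and 384 CPM (2.95, SE 0.31, adjusted p = 0.0214). Tyms, which makes thymidylate, stood at 326 and 560 CPM against 94.4 and 79.9 without a call (adjusted p = 0.0704). The 1 lower gene was Impdh1, of guanine nucleotide synthesis, at 7.76 and 2.96 CPM against 16.6 and 10.0.

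Chromatin genes of dividing cells were higher in 22 of 30 cases by the 2-fold rule, and 0 were lower, with 10 called and a median log2 fold change of 1.92. Both core ATPases of condensin, the ring that compacts mitotic chromosomes, were among them. Smc2 rose from 42.0 and 76.9 to 470 and 816 CPM (log2 fold change 3.46, SE 0.23, adjusted p = 0.00586), and Smc4 from 76.8 and 134 to 644 and 808 CPM (2.85, SE 0.22, adjusted p = 0.00871). The condensin subunits Ncapd2 and Ncapg rose from 8.72 and 15.2 to 284 and 221 CPM and from 12.2 and 31.9 to 281 and 322 CPM. Hmgb2, a DNA-bending chromatin protein, rose from 66.1 and 63.4 to 670 and 611 CPM (3.32, SE 0.23, adjusted p = 0.00586). H2afx, the histone variant that marks broken DNA, rose from 16.0 and 3.23 to 203 and 126 CPM (4.49, SE 0.57, adjusted p = 0.0408).

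Of 29 genes of the DNA damage checkpoint and of homologous recombination, 14 were 2-fold higher and 0 lower, with a median log2 fold change of 2.13. Of these, 1 was called.

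Regulators of the G1 phase did not move as 1 group. Of 40 tested, 12 were 2-fold higher, 2 lower and 0 called by either edgeR fit, and the median log2 fold change was 0.65. The higher ones included Foxm1, the factor of the G2 programme, at 129 and 83.0 CPM against 0.602 and 8.28, which had a read at equal depth in 61.3% and 45.5% of proliferating cells and in 1.97% and 2.81% of resting cells. E2f7 and E2f8, the repressive E2F factors, stood at 61.0 and 48.4 CPM against 1.65 and 0.507 and at 49.3 and 29.9 CPM against 0.464 and 0.0235. The activator E2f1 differed less, at 18.7 and 15.1 CPM against 9.33 and 7.69. Mybl2, the MuvB partner, did so in the female, with 39.6 against 2.62 CPM, and hardly in the male, with 8.97 against 8.05.

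Of the D-type cyclins, which open G1 in response to growth factors, Ccnd1 and Ccnd2 lay the other way. Ccnd1 stood at 45.1 and 7.48 CPM in proliferating and at 144 and 94.9 in resting cells (log2 fold change -2.65, SE 0.57, adjusted p = 0.197). Ccnd2 stood at 508 and 709 CPM against 1256 and 1331 (-1.09, SE 0.23, adjusted p = 0.183). Both groups were separate in both genes, and neither gene passed the test. At equal depth Ccnd2 had a read in 90.3% and 77.3% of proliferating and in 80.3% and 79.2% of resting cells. Its share of cells thus did not follow its level. Among the inhibitors of cyclin-dependent kinases, Cdkn2c stood at 256 and 137 CPM against 75.2 and 61.9. Cdkn1a, the p53 target p21, was lower in the female (20.4 against 80.8 CPM) and higher in the male (141 against 57.3 CPM). At equal depth it had a read in 12.9% and 27.3% of proliferating cells and in 7.89% and 5.62% of resting cells. The share of cells was thus higher in both mice, unlike the summed level. Cdkn1c, p57, stood at 108 and 72.8 CPM against 141 and 109, so that the groups touched without overlap (adjusted p = 0.665). Its share of cells went the other way, with a read in 61.3% and 50% of proliferating and in 44.1% and 36.0% of resting cells.

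Several called genes stood on none of these lists. Tuba1c and Tubb4b, tubulins, rose from 34.7 and 18.6 to 480 and 275 CPM and from 129 and 149 to 1100 and 977 CPM. Nucks1, a chromatin protein, rose from 145 and 178 to 649 and 644 CPM, and Diaph3, a formin of the actin cytoskeleton, from 6.16 and 13.6 to 116 and 326 CPM. Esco2, which locks cohesin onto replicated DNA, rose from 6.33 and 8.52 to 155 and 250 CPM. Of the 110 genes that rose, 67 were on a division list. These 5 were picked after their values were seen.

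**Figure D2:**
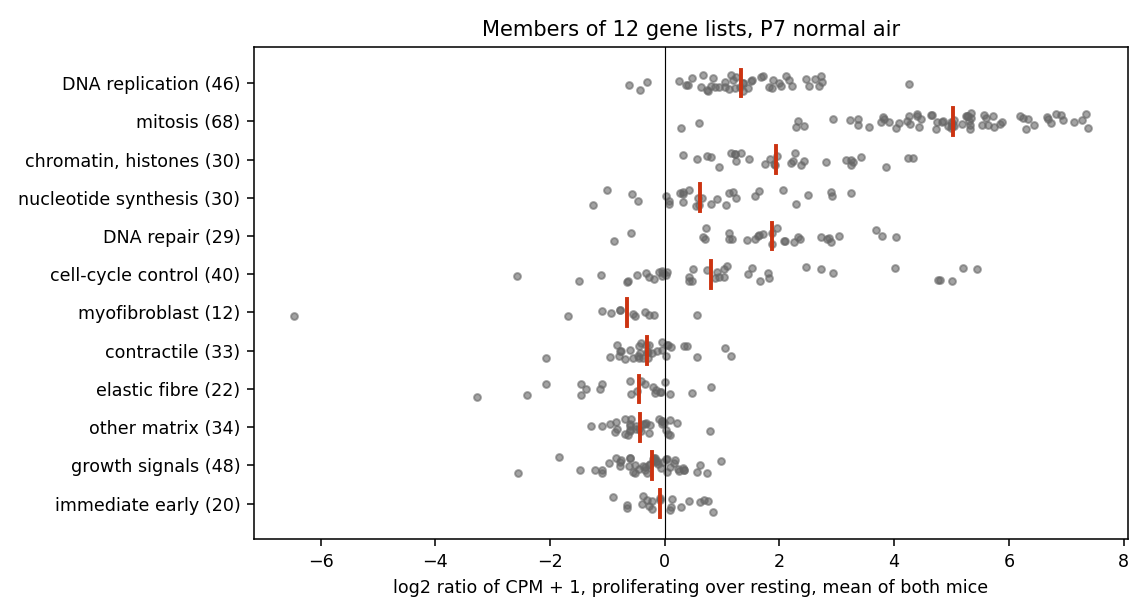
For 12 gene lists, the difference between proliferating and resting myofibroblasts of each measured gene, as the mean over both mice of the difference in log2(CPM + 1), with 1 point per gene and a bar at the list's median. The mitosis list stands highest, replication, chromatin and repair genes lie mostly above 0, and contractile, matrix and elastic fibre genes gather at or below 0.

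The division genes separated single cells as well as sums. At 100000 reads per cell, the median proliferating cell had reads of 47 and 45.5 of the 68 mitosis genes in the female and the male, and the lowest had 21 and 18. The median resting cell had 2 and 2. In the female 4 of 152 and in the male 1 of 178 resting cells reached the lowest proliferating cell of their mouse. Because the labels may rest on these genes, this is a description of the label.

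Replication genes followed the label less closely. The median proliferating cell had reads of 22 and 17.5 of the 46 replication genes, but single cells ran from 1 to 40 in the female and from 2 to 40 in the male. The median resting cell had 3 and 3, and the highest 39 and 33. Among resting cells, 10 in the female (6.58%) and 14 in the male (7.87%) reached the median of the proliferating cells. Conversely, 4 and 3 proliferating cells were at or below the resting median. The class thus held cells with many mitosis genes and few replication genes, and some cells with many replication genes carried the plain myofibroblast label.

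**Figure D3:**
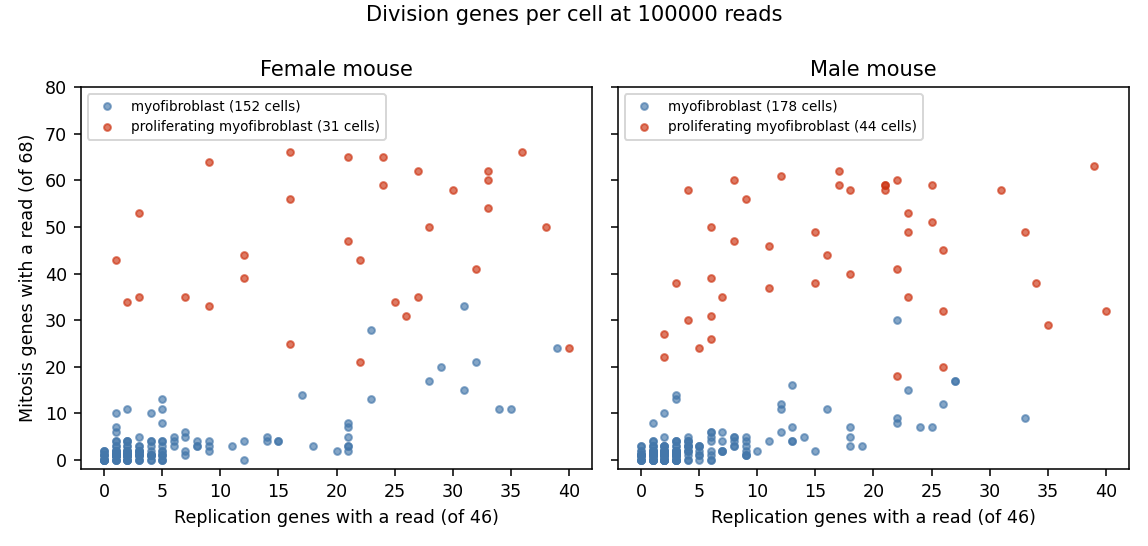
Number of mitosis genes (of 68) and of replication genes (of 46) with a read in each cell thinned to 100000 reads, for proliferating (red) and resting (blue) myofibroblasts of the female and the male at day 7 in normal air. The classes part along the mitosis axis and overlap along the replication axis.

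Proliferating cells also had reads of more genes in all. At 100000 reads the median proliferating cell had 3341 and 3351.5 genes (female and male), and the median resting cell 2231 and 2124.5. The difference was 1110 and 1227 genes, a mean of 1168.5 ± 82.7 (SD, n = 2 mice). At 50000 reads the mean difference was 1052.5, and without thinning 1204.75. Early airway smooth muscle cells, which carried no proliferating label, had 3163 and 2973 genes at the same depth.

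Most myofibroblast markers differed by less than 2-fold. Of 12 myofibroblast markers, 0 were 2-fold higher and 2 lower, and the median log2 fold change was -0.63. Pdgfra, the receptor for platelet-derived growth factor A, stood at 487 and 417 CPM in proliferating and at 360 and 259 in resting cells (log2 fold change 0.58, SE 0.22, adjusted p = 0.468). It was the only marker on this list that was higher in both mice. Wnt5a, a Wnt ligand of myofibroblasts, stood at 420 and 301 CPM against 608 and 422, and Pdlim3, an actinin-binding protein, at 1672 and 1496 CPM against 1754 and 1852. The 2 lower markers were Aspn, treated below, and Mustn1, a small nuclear protein of muscle and skeleton, at 289 and 225 CPM against 676 and 1004 (adjusted p = 0.0791).

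Contractile genes differed by little each. Of 33, 1 was 2-fold higher and 0 lower, 0 were called and the median log2 fold change was -0.30. In 16 of the 33 the proliferating value was lower in both mice, at any size, and in 5 higher. The share of all genes at any size is not given here, so these 2 numbers have no background to be read against. Actg2, enteric smooth muscle actin, stood at 960 and 1113 CPM against 1874 and 1816, and Myl9, the regulatory light chain of myosin, at 1248 and 1754 against 2214 and 2959. Myh10, non-muscle myosin IIB, stood the other way, at 409 and 505 CPM against 315 and 384. The 1 gene past 2-fold was Itga8, an integrin, at low levels of 2.08 and 7.00 CPM against 0.307 and 2.80.

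Elastic fibre genes were lower in both mice, at any size, in 15 of 22 cases and higher in 3, again without a share of all genes. By the 2-fold rule 5 were lower and 0 higher, and 2 fell by the test, with a median log2 fold change of -0.59. Eln, elastin itself, stood at 797 and 925 CPM in proliferating and at 2129 and 1575 in resting cells (log2 fold change -1.07, SE 0.26, adjusted p = 0.258). It had a read in 87.1% and 93.2% of proliferating cells and in 91.4% and 90.4% of resting cells, so the share of cells did not part the classes. Mfap5, a microfibril protein, fell from 494 and 747 to 72.0 and 53.2 CPM (-3.28, SE 0.30, adjusted p = 0.0135), and Mfap4, another, from 367 and 622 to 84.8 and 152 CPM (-2.06, SE 0.23, adjusted p = 0.0248). The 14-library test gave an adjusted p of 0.0555 for Mfap5 and of 1 for Mfap4. Fbn1, the microfibril backbone, stood at 698 and 664 CPM against 733 and 777, and Fbn2 at 145 and 148 against 165 and 147.

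Of 34 collagen and other matrix genes 0 were 2-fold higher or lower, and the median log2 fold change was -0.43. At any size 20 were lower in both mice and 1 higher, again without a share of all genes. The list summed to 18504 and 16156 CPM in proliferating against 24513 and 22865 in resting cells. By mean CPM over cells, 4 of the 34 were 2-fold lower and 0 higher. Col1a2 and Col3a1, fibrillar collagen chains, stood at 1135 and 1245 CPM against 2105 and 2194 and at 1242 and 869 CPM against 1948 and 1866. Of 48 growth factor, hedgehog and Wnt genes 2 were 2-fold lower and 0 higher, with a median of -0.21. Igfbp7, a binding protein of insulin-like growth factors, was 1 of the 2, at 14.1 and 19.8 CPM against 65.7 and 58.9. Ptch1, the hedgehog receptor and target, stood at 211 and 151 CPM against 140 and 143. Immediate early genes, which cell isolation also induces, had a median of -0.11, with 0 of 20 past 2-fold, and Fos stood at 3128 and 3086 CPM against 2839 and 2320.

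The genes that fell in the 14-library test were Aspn, Ogn and Fmo1. Aspn, asporin, a small leucine-rich proteoglycan of the matrix, stood at 5.31 and 17.4 CPM in proliferating and at 848 and 1071 in resting cells (log2 fold change -6.49, SE 0.67, adjusted p = 0.0105). Ogn, osteoglycin, of the same family, had 0 and 8 reads in the proliferating cells, and 14482 and 13512 in the resting cells, which are levels of 0 and 0.141 CPM against 87.2 and 63.4 (-9.94, SE 0.92, adjusted p = 0.0105). The size of this fold rests on those 8 reads: it was -8.76 without the female's libraries (adjusted p = 0.0333) and -15.70 without the male's (adjusted p = 0.00395), and on plate 1 alone the call was lost (adjusted p = 0.106). The 3 reads that a count of 0 allows would be 0.0734 CPM in the female. Neither class overlapped the other. Without the female's libraries the adjusted p of Aspn was 0.131, and without the male's 0.107, while its log2 fold change stayed at -5.90 and -7.42. In a fit of the 4 mice at day 7, hyperoxia included, it was 0.244 for Aspn and 0.0806 for Ogn.

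Fmo1, a flavin monooxygenase, stood at 0.220 and 0.264 CPM against 6.51 and 9.49 (14-library log2 fold change -5.01, SE 0.52, adjusted p = 0.0105). Its level lies below the 10 CPM that genes had to reach to be named, and it is named since only 3 genes were called. Before thinning, Fmo1 had a read in 18.8% and 24.4% of proliferating and in 16.1% and 17.9% of resting cells. The share of cells with a read did not follow the summed level.

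Aspn and Ogn are neighbours in the genome. In the RefSeq annotation Ecm2, Aspn, Omd and Ogn, all of them leucine-rich proteoglycan genes, lie in this order on mouse chromosome 13 inside the span of Cenpp, which encodes a centromere protein. Ecm2 and Omd did not pass the test, and Omd was near 0, at 5.46 and 0 CPM against 0.440 and 0.160. Ecm2 stood at 21.9 and 10.1 CPM against 18.8 and 37.5. Cenpp stood at 91.5 and 145 CPM against 28.4 and 12.5 (adjusted p = 0.237). How reads in overlapping genes were counted, and whether by strand, is not stated, so these levels are uncertain.

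Aspn and Ogn had reads in a minority of the resting cells. At equal depth Aspn had a read in 36.8% (95% Wilson interval 29.6 to 44.7) and 37.6% (30.9 to 44.9) of resting cells, and in 2 of 31 (6.45%, 1.79 to 20.7) and 5 of 44 (11.4%, 4.95 to 24.0) proliferating cells. Ogn had a read in 13.8% and 9.55% of resting cells and in 0 of 31 and 0 of 44 proliferating cells. If a count of 0 is taken to allow up to 3 cells, the shares could reach 9.68% and 6.82%. This is another and narrower bound than the Wilson interval given for Aspn. These bounds express counting error alone. Aspn had a read in 17.1% and 16.7% of early alveolar fibroblasts, where its level was 39.0 and 86.8 CPM, so the share in proliferating myofibroblasts was no higher than there.

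The classes in which these genes were common differed. Early airway smooth muscle cells had an Aspn read in 98.7% and 98.4% of cells, and their level was 6450 and 8683 CPM. They also had a read of Kcnj8, a potassium channel subunit, in 72.0% and 69.8% of cells, and of Lrrc15, a leucine-rich membrane protein, in 73.3% and 74.6%. In resting myofibroblasts Kcnj8 had a read in 12.5% and 12.4% of cells and Lrrc15 in 10.5% and 8.99%, and in proliferating ones Kcnj8 in 3.23% and 2.27% and Lrrc15 in 3.23% and 0%. Ogn was instead common in early alveolar fibroblasts, with a read in 73.8% and 79.0% of cells. Pdgfra went the other way: 83.9% and 86.4% of proliferating myofibroblasts had a read, 61.2% and 57.9% of resting ones, and 13.3% and 11.1% of airway smooth muscle cells. Proliferating cells had reads of more genes than resting ones at this depth, as given above, and the shares were not adjusted for it.

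**Figure D4:**
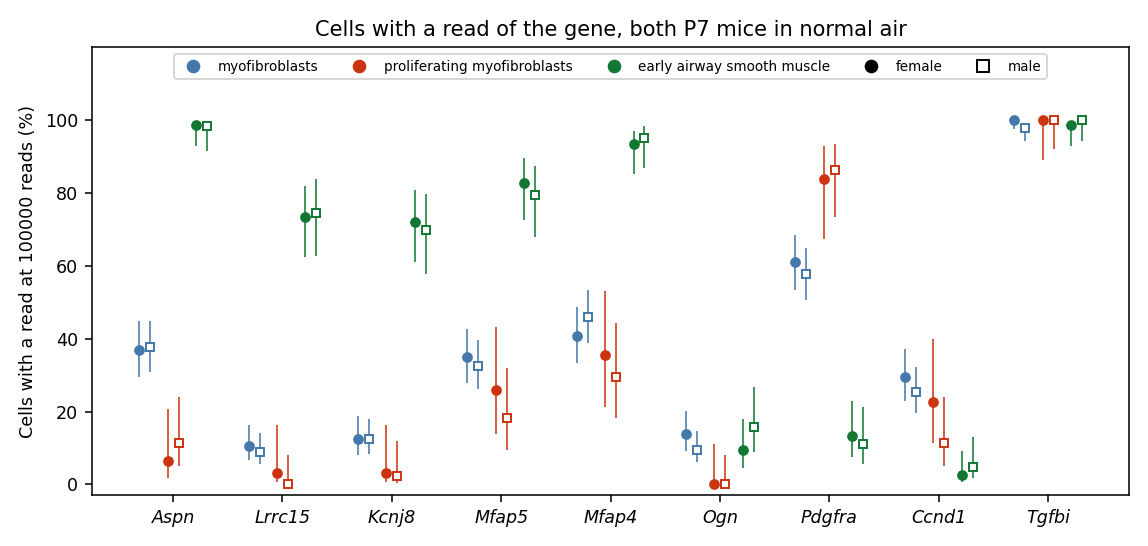
Share of cells with a read of 9 genes after thinning to 100000 reads, with 95% Wilson intervals, in resting (blue) and proliferating (red) myofibroblasts and early airway smooth muscle (green) of the female (filled) and the male (open) at day 7 in normal air. For Aspn, Lrrc15 and Kcnj8 the proliferating myofibroblasts are lowest and airway smooth muscle is highest, and for Pdgfra this order is turned around.

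Within the resting class the same genes went together. Resting cells were divided by whether they held an Aspn read, a division chosen after the values were seen and given without a test. Among the 56 and 67 cells with Aspn, Pdgfra had a read in 35.7% and 32.8%, and among the 96 and 111 cells without it in 76.0% and 73.0%. Lrrc15 had a read in 28.6% and 22.4% of cells with Aspn and in 0% and 0.901% of those without, and Mfap5 in 60.7% and 56.7% against 19.8% and 18.0%. Mki67 had a read in 16.1% and 20.9% of the cells with Aspn and in 18.8% and 26.1% of those without. The proliferating cells, with Pdgfra in 83.9% and 86.4%, Lrrc15 in 3.23% and 0% and Mfap5 in 25.8% and 18.2%, lay nearer to the resting cells without Aspn in these 3 genes. Hhip, an inhibitor of hedgehog ligands, did not follow this, with a read in 26.8% and 41.8% of resting cells with Aspn, 13.5% and 18.0% of those without, and 25.8% and 34.1% of proliferating cells. Nor did Ccnd1, with a read in 14.3% and 14.9% of resting cells with Aspn, 38.5% and 31.5% of those without, and 22.6% and 11.4% of proliferating cells. Aspn and Mfap5 were named because they differed between the classes, and Lrrc15 was chosen after values were seen. The nearness in the 3 genes is thus set in part by the choice of genes.

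Markers of other cell types were counted in the same way. Of 10 airway smooth muscle markers 0 were 2-fold higher or lower, and their summed level was 2323 and 2292 CPM in proliferating against 3507 and 3714 in resting cells, with Pcp4 at 0 reads. Of 12 pericyte and vascular muscle markers 4 were lower (Cox4i2, Kcnj8, Abcc9 and Trpc6), with sums of 353 and 335 CPM against 432 and 512. The 10 alveolar fibroblast markers summed to 404 and 717 CPM against 650 and 1031, with 1 lower, Mfap4, and Wnt2 and Slc7a10 at 0 reads. The adventitial markers, of which 11 were tested and 2 were lower, Mfap5 among them, summed to 1389 and 791 CPM against 1526 and 1570, with Clec3b and Ly6a at 0 reads.

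The endothelial list summed to 702 and 504 CPM against 637 and 574, with the defining genes Cdh5, Kdr, Tek and Tie1 at 0 reads in proliferating cells. The immune list summed to 75.4 and 77.1 CPM against 54.7 and 27.0, with Cd53 and Rac2 at 0. The epithelial list summed to 48.0 and 49.9 CPM against 50.4 and 63.6, with Nkx2-1, Sftpb, Krt18 and Hopx at 0, and the erythroid list to 2.81 and 0.0176 CPM against 4.62 and 1.15. The part of such other cells in the lower Aspn, Kcnj8, Lrrc15 and Mfap5 of the proliferating class was not tested.

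The proliferating fibroblasts of the same mice, 17 and 6 cells, were set against early alveolar fibroblasts to see which differences belonged to the myofibroblasts. The difference of the 2 differences was tested with edgeR, which called 0 of 14330 genes (0%), with 1076 at an unadjusted p under 0.05, while DESeq2 called 855. The division genes were higher in both contrasts: 62 of 68 mitosis genes, 30 of 46 replication genes and 22 of 30 chromatin genes were 2-fold higher in proliferating fibroblasts. There 5.41% of all genes were 2-fold higher and 15.1% lower. Of the 110 genes that rose in proliferating myofibroblasts, 103 were 2-fold higher in proliferating fibroblasts, and of the 4 that fell, 1 was lower there. A gene that misses the test is not shown to act alike in both.

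With all 4 mice at day 7 in that fit, hyperoxia included, 12 of 14068 genes differed, 10 lower (0.0711%) and 2 higher (0.0142%) in the myofibroblast contrast. Of the 10, 3 were chains of fibrillar collagens. Col1a1 stood at 1114 and 930 CPM in proliferating and 1505 and 1392 in resting myofibroblasts in air, but at 5309 and 5974 CPM in proliferating and 3019 and 1875 in early alveolar fibroblasts (log2 difference -1.68, SE 0.23, adjusted p = 0.017). Col1a2 and Col3a1 differed likewise (-1.36, SE 0.22, adjusted p = 0.0465, and -1.61, SE 0.25, adjusted p = 0.0405). Postn, periostin, stood at 115 and 148 CPM against 210 and 164 in the myofibroblasts and at 335 and 242 against 33.5 and 5.34 in the fibroblasts (-4.78, SE 0.73, adjusted p = 0.0371). The other lower genes were Col15a1, Crip1, Rhoj, Jpt1, Lgals1 and Sparc, and the higher ones Chst2 and Sh3bgrl, with adjusted p from 0.00816 to 0.047 over all 12. With the 2 mice in air alone the adjusted p was 0.587 for Col1a1, Col1a2, Col3a1 and Postn alike.

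The fibroblast classes differed in identity as well as in division. Of 10 alveolar fibroblast markers 8 were 2-fold lower in the proliferating fibroblasts, and of 11 adventitial markers 5 were higher. Mfap4 stood there at 5891 and 8224 CPM against 17721 and 27878, and Tgfbi at 103 and 64.2 CPM against 4.38 and 10.3. The Tgfbi reads came from 3 of 17 and 1 of 6 proliferating fibroblasts, so this level does not describe the class. The part of this in the collagen difference was not tested.

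Hyperoxia was compared with normal air within the proliferating class, on 17 and 8 cells of the female and the male in hyperoxia. The fit also held the resting libraries of the 4 mice, with a term for sex and none for the mouse. Both libraries of a mouse were thus treated as independent, which left 3 residual degrees of freedom. The edgeR test called 2 of 13761 genes (0.0145%), both higher, with 1510 at an unadjusted p under 0.05. Gas6, the ligand of the TAM receptor tyrosine kinases, rose from 23.3 and 13.6 to 273 and 295 CPM (log2 fold change 3.88, SE 0.42, adjusted p = 0.0489). Anxa8, an annexin, rose from 0 and 0.0176 to 97.4 and 160 CPM (adjusted p = 0.00971), and as the air libraries held 0 and 1 reads no fold is given. Both calls were lost without the air female (adjusted p 0.101 for each), the hyperoxia female (0.0847 for each) or the hyperoxia male (0.326 for Anxa8 and 0.397 for Gas6). DESeq2 called 909 genes.

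Both genes also stood higher in hyperoxia in the resting myofibroblasts. Their Gas6 level was 52.4 and 25.3 CPM in air and 265 and 270 in hyperoxia, and their Anxa8 level 4.05 and 3.91 against 89.4 and 40.6. The difference of the hyperoxia effect between the classes had an adjusted p of 0.232 for Anxa8 and of 1 for Gas6 (edgeR), so it did not pass, which does not show that the classes act alike. Cdkn1a was not called, but stood at 20.4 and 141 CPM in proliferating cells in air and at 2069 and 1889 in hyperoxia, and in resting cells at 80.8 and 57.3 against 2920 and 2738. Ccnd1 stood at 177 and 674 CPM in proliferating cells in hyperoxia. In the same proliferating libraries in hyperoxia Mki67 stood at 637 and 323 CPM and Top2a at 772 and 366.

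Within the mice in hyperoxia the division genes were again higher in the proliferating class. The contrast was taken within the 2 hyperoxia mice, in an edgeR fit of all 4 mice at day 7. This test called 124 of 12402 genes higher (1%) and 1 lower (0.00806%). Its estimate of spread also drew on the air libraries, so its calls are not independent of those in air. Of the 110 genes that rose in air, 106 were 2-fold higher in both mice in hyperoxia, where 4.57% of all genes were, and 81 were called. Of the 4 that fell in air, 0 were 2-fold lower in both mice in hyperoxia, where 5.96% of all genes were. Aspn stood at 256 and 81.2 CPM in resting and at 248 and 0 CPM in proliferating cells, so that in the female in hyperoxia the classes stood level. Ogn stood at 24.5 and 17.2 against 64.1 and 3.38 CPM, and Mfap5 at 94.3 and 4.39 against 267 and 8.71. The test of the difference between hyperoxia and air called 0 of 13761 genes (0%), with 546 at an unadjusted p under 0.05 and 186 by DESeq2.

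At the earlier ages the class was too small for a test, with 2 and 5 cells at day 1 and 2 and 7 at embryonic day 18.5. Mki67 stood at 468 and 378 CPM in the proliferating cells at day 1 against 21.9 and 50.9 in the resting ones. Aspn stood at 0 and 205 CPM against 459 and 670. At day 21 no cell carried the label.

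The share of proliferating cells among all labelled myofibroblasts at day 7 in air was 17.1% in the female (32 of 187, 95% Wilson interval 12.4 to 23.2) and 19.7% in the male (45 of 229, 15.0 to 25.3), a mean of 18.4% ± 1.79 (SD, n = 2). By plate it was 17.9% and 16.3% in the female and 15.3% and 24.3% in the male. In hyperoxia it was 22.7% (17 of 75) and 15.1% (8 of 53), a mean of 18.9% ± 5.35. The means differed by 0.499 percentage points, less than the spread between mice, and an exact permutation test of 2 mice against 2 allows no two-sided p below 0.333, so it could not tell them apart. As a share of all cells of the mouse, proliferating myofibroblasts were 5.28% and 7.89% in air and 3.34% and 1.45% in hyperoxia, so that with this denominator the groups did not overlap. At day 1 the shares were 4.88% (2 of 41) and 13.5% (5 of 37). For comparison, proliferating fibroblasts were counted among proliferating, early alveolar and early adventitial fibroblasts, without cells of other fibroblast labels. They made up 5.99% and 2.88% in air and 6.69% and 9.14% in hyperoxia. Proliferating pericytes made up 16.1% and 13.9% of pericytes in air.

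**Figure D5:**
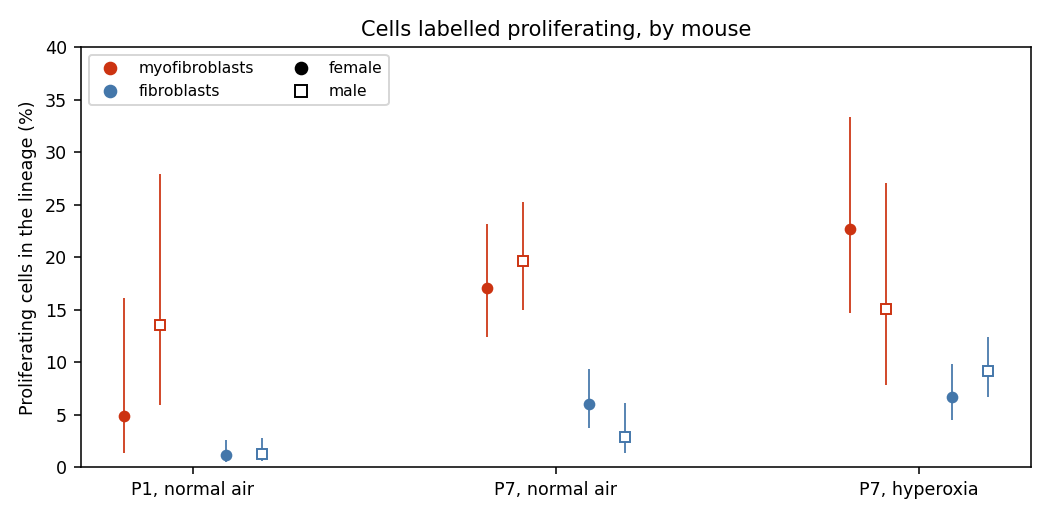
Share of cells with a proliferating label within the myofibroblasts and within the fibroblasts (proliferating, early alveolar and early adventitial) of each mouse, with 95% Wilson intervals, by age and treatment (circles for females, squares for males). In the myofibroblasts at day 7 the 2 mice in air lie between the 2 mice in hyperoxia.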

How the data were processed

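Per the labels, single mesenchymal cells sorted from distal lung were sequenced in plates. The deposited table holds whole-number read counts for 18072 genes in 5480 cells, which the authors had not normalized. The submitters' processing notes name STAR 2.5.2b and HTSeq 0.10. The mouse genome build and the treatment of doublets are not given in the sources used here, no doublet caller was run, and all labelled cells were kept. Counts were summed by mouse and subtype label, and CPM scale these sums to a common total. The main test was edgeR's two-sided quasi-likelihood test (edgeR 4.0.16, R 4.3.3), after filterByExpr and TMM, with Benjamini-Hochberg adjustment and a threshold of 0.05. Mouse was the block in the comparisons of classes within mice, so the pairing there comes from the animal. The test of hyperoxia against air had terms for sex and for class by treatment, and none for the mouse. DESeq2 1.42.0 and limma 3.58.1 were alternatives. With 1 mouse per sex and group, sex and individual cannot be told apart. Genes were named by a rule: the 12 largest rises and falls among called genes of at least 10 CPM, the 4 largest called members of each list, and a preset set. Since few genes passed the 14-library test, the rule was also applied to the planned 4-library test. Other genes named were chosen after their values were seen. The members and the gene lists were chosen with earlier results of these data known. To compare cells, each was thinned to 100000 reads, which left out 3 and 6 resting and 1 and 1 proliferating cells. Single genes of the DNA repair list are not reported here.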

Additional observations from a re-analysis of the deposited data

Results flagged for a closer look

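For Mfap5 the step from resting to proliferating myofibroblasts went opposite ways by treatment, down in both mice in air (differences in log2(CPM + 1) of -2.76 and -3.79) and up in both in hyperoxia (1.49 and 0.85). The tested difference was 4.54 on the log2 scale, with an adjusted p of 0.173 by edgeR, so it did not pass.

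In 4 genes the step went down in both mice for myofibroblasts and up in both for fibroblasts at day 7 in air, and no difference passed the edgeR test. For Aspn the difference was -8.78 (adjusted p = 0.290), and the steps were -7.07 and -5.86 against 0.96 and 2.75. For Mfap5 it was -4.57 (adjusted p = 0.290). For Tgfbi it was -3.71 (adjusted p = 0.587), with steps of only -0.29 and -0.24 in the myofibroblasts, against 4.27 and 2.53. For Eln it was -2.98 (adjusted p = 0.393), with steps of -1.42 and -0.77 against 1.56 and 2.28. The fibroblast values rest on 17 and 6 proliferating cells. Of these, only 3 in the female and 1 in the male had a read of Tgfbi.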

How the results depend on the processing

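The number of genes called between proliferating and resting myofibroblasts was 3 and depended on the fit more than on any other choice. It was 6 without a filter on low counts, 329 with DESeq2, 6 with no replicate block, 114 with the 4 libraries alone, 89 with the 4 mice at day 7 and the replicate block, 54 with limma on mean CPM over cells, 1 with plate 2 alone, and 2 to 2 without 1 mouse. The difference between myofibroblasts and fibroblasts called 0 genes, 12 with 4 mice, 855 with DESeq2, and 27 to 31 without 1 mouse. Hyperoxia called 2 genes, 909 with DESeq2, 20 without a filter, and 0 to 15 without 1 mouse, and its difference between classes 0, with 186 by DESeq2, 5 without a filter, and 0 to 4 without 1 mouse. Genes 2-fold lower in both mice numbered 791, with 306 at 5 CPM added and 1244 at 0.1 CPM, 2 alternatives chosen after seeing the data. The mean share of proliferating cells was 16.6% on plate 1, 20.3% on plate 2 and 6.59% of all cells of the mouse, and the difference in genes per cell was 1052.5 at 50000 reads.

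The medians of 4 lists turned sign: immediate early genes to 0.13 on plate 1, alveolar fibroblast markers to -1.18 on plate 1, -0.26 on plate 2 and -0.30 to 0.63 without 1 mouse, endothelial markers to 0.27 with 4 mice, and immune markers to -0.59 to 0.25 without 1 mouse and -2.07 on plate 2. The cause was not tested. Among the other values, 763 alternatives left a value on its side of the threshold or within the set limits, 98 brought it past the threshold, 12 took it back and 35 moved it further. With 2 mice per group the spread between mice rests on few degrees of freedom, and copied reads are not independent molecules.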
